A study of Mus musculus with 14 samples.

Results

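A set of 10 genes that direct what a cell does with pyruvate was followed through the first hours after a meal in mouse duodenal mucosa. They were taken as every probe set that the platform annotation assigns to a single one of Pck1, Pcx, Pdk1, Pdk2, Pdk3, Pdk4, Pdp1, Pdp2, Pdha1 and Pdhb. This gave 22 probe sets of 10 genes, out of 45101 probe sets and 18193 genes on the array. Of the 22 probe sets, 18 entered the test across all 45037 non-control probe sets, and the other 4, all of Pcx, are Affymetrix control probe sets and were read separately.

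Pyruvate stands at a branch point of carbohydrate metabolism. Pyruvate carboxylase (Pcx) turns it into oxaloacetate, which cytosolic phosphoenolpyruvate carboxykinase (Pck1) converts to phosphoenolpyruvate, the committed step towards new glucose in liver, kidney and gut. The pyruvate dehydrogenase complex, whose E1 component is built from Pdha1 and Pdhb, instead commits pyruvate irreversibly to acetyl-CoA. The kinases Pdk1 to Pdk4 phosphorylate E1 and switch the complex off, whereas the phosphatases Pdp1 and Pdp2 switch it back on. Pdk4 is known in muscle, heart and liver as a gene of the fasted state, when fatty acids are burned and glucose is spared.

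All mice were C57BL6 males, 12 wk old before they were acclimatized to a low-fat diet and then fasted for 12 h. HF30min, HF1h and HF3h mice were fed a high-fat meal (60% of calories as fat) ad libitum until they were killed. This was 30 min, 1 h or 3 h after the meal began. LF30min, LF1h and LF3h mice were treated in the same way with a low-fat meal (10%). Fasting mice received no meal. The scraped duodenal mucosa of 20 mice was combined into 1 RNA pool per group, and each of the 7 pools was hybridised to 2 arrays, which gave 14 arrays. The 2 arrays of a group are technical replicates of 1 pool, so every p-value below measures the spread between arrays and leaves out the spread between mice. Values are log2 RMA signals, a level averages 2 arrays, and a probe set was called where the limma adjusted p was under 0.05. The deposited values hold no detection calls, and log2 values under 6 were treated as low.

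The 11 enterocyte marker genes measured were above 6 on every array, with a mean level between 12.40 and 12.50, so the tissue label was borne out. Replicate arrays correlated at r = 0.9958 to 0.9971 over all probe sets. Levels of marker genes of other tissues and glands differed between the pools, and whether this RNA came from tissue scraped along or from the mucosa itself was not tested. Brunner glands are part of the duodenum. The mean level of 10 stomach and Brunner gland markers was 8.58 to 8.60 at HF30min and 7.80 to 7.89 at LF30min, against 5.91 to 5.97 in Fasting. That of 10 pancreatic acinar markers was 11.67 on both HF3h arrays and 10.76 to 10.77 at LF3h, against 10.94 to 10.95 in Fasting. The 3′ minus 5′ difference of control probe sets is a measure of RNA integrity. For Gapdh it was lower on both LF3h arrays than on all others (-0.035 to -0.03, against -0.011 to 0.095). It was also lower there for actin (0.397 to 0.398, against 0.419 to 0.542), and it overlapped for Pcx (1.55 to 1.65, against 1.63 to 2.02). Its part in the LF3h differences of Pck1, Pdk4 and Pdhb was not tested. In pooled bulk RNA, fewer cells of a type and less RNA per cell cannot be told apart.

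The promoters of the 3 genes on which the results turn most are shown for their position and for short motifs found in them. The RefSeq windows (GRCm38.p6) run from 250 bases before to 50 bases after the start site, 5′ to 3′ on the gene's strand, and capitals mark the motifs. Windows were found for 9 of the 10 genes. The Pck1 window lies at chr2:173152823-173153122 on the + strand, the Pdk4 window at chr6:5496229-5496528 on the - strand and the Pdhb window at chr14:8172943-8173242 on the - strand.
Pck1: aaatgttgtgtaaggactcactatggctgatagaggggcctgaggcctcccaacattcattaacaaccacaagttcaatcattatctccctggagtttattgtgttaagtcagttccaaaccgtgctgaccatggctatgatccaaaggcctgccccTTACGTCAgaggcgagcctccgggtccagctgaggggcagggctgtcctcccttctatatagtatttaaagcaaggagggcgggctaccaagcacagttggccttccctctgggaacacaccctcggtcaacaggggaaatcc
Pdk4: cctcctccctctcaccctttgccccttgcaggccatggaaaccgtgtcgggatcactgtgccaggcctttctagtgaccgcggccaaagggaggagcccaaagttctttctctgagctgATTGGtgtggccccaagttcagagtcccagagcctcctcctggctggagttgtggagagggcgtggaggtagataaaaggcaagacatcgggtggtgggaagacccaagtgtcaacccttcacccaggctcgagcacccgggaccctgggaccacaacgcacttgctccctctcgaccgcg
Pdhb: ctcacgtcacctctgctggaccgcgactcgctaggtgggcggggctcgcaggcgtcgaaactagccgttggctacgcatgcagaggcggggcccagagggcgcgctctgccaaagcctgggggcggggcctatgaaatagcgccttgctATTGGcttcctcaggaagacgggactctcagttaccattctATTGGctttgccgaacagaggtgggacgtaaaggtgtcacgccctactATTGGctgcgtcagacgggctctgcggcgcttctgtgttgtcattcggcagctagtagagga
The capitals in Pck1 are TTACGTCA, a variant of the cAMP response element, which begins at position -93 from the start site and is present in 0.499% of 32851 promoters. In Pdk4 they are ATTGG, the reverse of the CCAAT box, at -131, a motif that 37.408% of promoters hold on either strand. Pdhb holds 3 copies of ATTGG, at -101, -60 and -12, and 3.37% of promoters hold at least as many. TGACGTCA (1.79% of promoters), GTAAACA (3.65%), CACGTG (7.15%) and a direct repeat of AGGTCA spaced by 1 base (0.04%) were also searched on both strands and are not in these 3 windows. Of the other member windows, those upstream of Pdk2 and Pcx each held 3 CCAAT boxes in 1 of 2 windows. The motifs were chosen with the sequences in view, and a match in a window is a description of its letters.

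Pck1 was the member that moved most. On its most intense probe set, 1423439_at, the LF series read 9.15 and 9.30 in Fasting, 8.95 and 9.03 at LF30min, 7.90 and 7.65 at LF1h, and 5.84 and 5.94 at LF3h. The HF series, from the same fasting arrays, read 9.50 and 9.54 at HF30min, 8.08 and 8.22 at HF1h, and 6.69 and 6.84 at HF3h. Both arrays of every 1 h and 3 h pool were lower than both fasting arrays, and both HF30min arrays were higher. Against Fasting, Pck1 fell by 1.45 (SE 0.10) on the log2 scale at LF1h and fell by 3.33 (SE 0.10) at LF3h (limma adjusted p = 2.4e-06 and 7e-10). It fell by 1.07 at HF1h (limma adjusted p = 1.1e-04) and fell by 2.46 at HF3h, 5.49-fold lower (limma adjusted p = 9.7e-09). The LF3h arrays lay under 6, so their level has only an upper bound, and with that level set to 6 the signal at LF3h was at least 9.34-fold lower than in Fasting. At 30 min neither difference passed the test, with -0.23 at LF30min and 0.30 at HF30min (limma adjusted p = 0.24 for HF30min).

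Markers of other tissues and glands also differed from Fasting. Of the 10 acinar markers, 8 rose and 0 fell at HF1h, 9 rose at LF1h and at HF3h with 0 falling, and 0 rose and 1 fell at LF3h, with medians of 0.48, 0.63, 0.57 and -0.24, while Pck1 fell at all 4. Of the 10 stomach and Brunner gland markers, 1 rose and 0 fell at HF1h, 6 rose and 0 fell at LF1h, 5 rose and 0 fell at HF3h, and 0 rose and 3 fell at LF3h, with medians of 0.12, 0.82, 0.67 and -0.19. Of the 7 adipocyte markers, 2 rose at HF3h and none was called at the other 3, and none of the 10 smooth muscle markers was called at any of the 4. Of the 11 enterocyte markers, 1 rose and 0 fell at HF3h and 0 rose and 1 fell at LF3h. Of the 9 hepatocyte markers, 6 were under 6 on all arrays. The part of these markers' tissues in the Pck1 differences was not tested.

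A further Pck1 probe set, 1439617_s_at, gave close to the same account. At 30 min it read 8.90 and 8.81 in HF30min and 8.22 and 8.30 in LF30min. At 1 h it read 7.35 and 7.42 in HF1h and 7.16 and 7.12 in LF1h. At 3 h it read 6.53 and 6.22 in HF3h, 5.46 and 5.44 in LF3h, against 8.46 and 8.52 in Fasting. No 1 h or 3 h array reached either fasting array. It fell by 2.11 at HF3h and fell by 3.03 at LF3h (limma adjusted p = 3e-08 and 8.7e-10), fell by 1.10 at HF1h and fell by 1.34 at LF1h. With the LF3h level set to 6, the signal at LF3h was at least 5.6-fold lower than in Fasting. Across the 7 group means the 2 probe sets correlated at r = 0.998. The remaining probe set, 1455209_at, lay between 2.57 and 2.90 on all arrays and was called in no comparison.

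Pcx, the enzyme that feeds oxaloacetate to Pck1, showed no call. Its tested probe set 1416383_a_at stayed between 7.45 and 7.76 on the 14 arrays, and its 6 differences from Fasting ran from -0.13 to 0.07, with a lowest limma adjusted p of 0.47 over all comparisons. The 4 control probe sets of Pcx differed from Fasting by -0.15 to 0.14, again with no call.

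**Figure D1:**
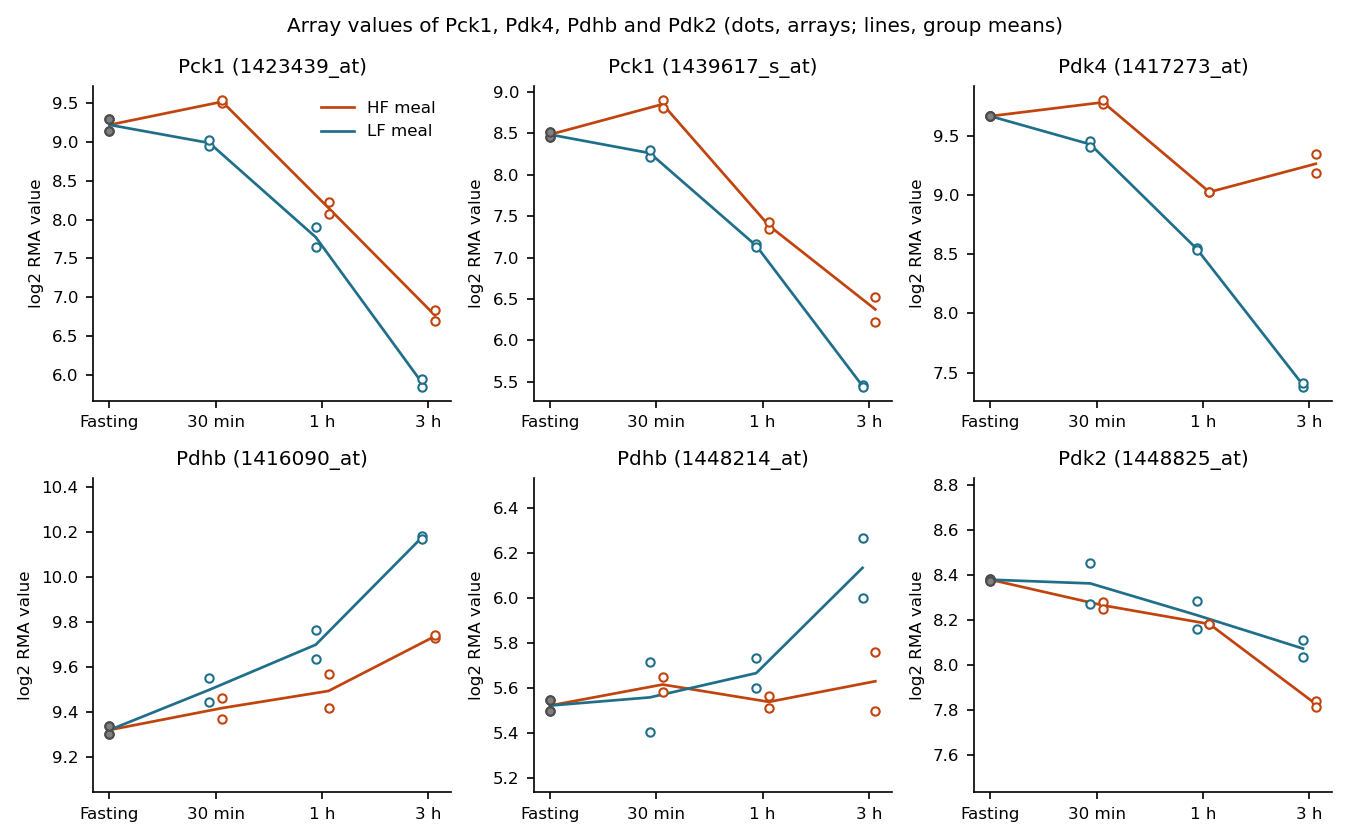
Log2 RMA signal (vertical axis) on each array for the called probe sets of Pck1, Pdk4, Pdhb and Pdk2, plotted by time after the meal (horizontal axis, times evenly spaced) with Fasting at the left; points are single arrays and lines join the means of the HF and LF series. Pck1 at 3 h is lower than in Fasting after either meal, and under 6 only in the LF pool. Pdk4 at 3 h is at 7.38 and 7.41 in the LF pool and at 9.34 and 9.18 in the HF pool.

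Pdk4, the kinase that restrains pyruvate dehydrogenase in the fasted state, separated the meals. Its probe set 1417273_at read 9.66 on both fasting arrays, then 9.45 and 9.40 at LF30min, 8.55 and 8.54 at LF1h, and 7.38 and 7.41 at LF3h. After the HF meal it read 9.76 and 9.80 at 30 min, 9.02 on both arrays at 1 h, and 9.34 and 9.18 at 3 h. The level was thus lower at each later LF time, whereas in the HF series both 3 h arrays were above both 1 h arrays. Pdk4 fell by 1.12 at LF1h and fell by 2.27 (SE 0.08) at LF3h, 4.82-fold lower than Fasting (limma adjusted p = 2.7e-06 and 1.9e-09). It fell by 0.64 at HF1h (limma adjusted p = 0.0012) and fell by 0.40 at HF3h (limma adjusted p = 0.0096). The HF3h call was lost without either fasting array or without HF3h replicate 2, with limma adjusted p between 0.018 and 0.11 over the 4 arrays left out in turn.

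The other kinases differed from Fasting by less than Pdk4 at LF1h and LF3h. At HF3h, Pdk2 (-0.55) and Pdk1 on 1423748_at (-0.43) differed by more than Pdk4 (-0.40). Pdk2, a kinase of broad tissue distribution, read 8.28 and 8.25 at HF30min, 8.18 on both arrays at HF1h, 8.27 and 8.45 at LF30min and 8.29 and 8.16 at LF1h. At 3 h it read 7.84 and 7.81 at HF3h and 8.03 and 8.11 at LF3h, against 8.38 on both fasting arrays. It fell by 0.55 (SE 0.09) at HF3h (limma adjusted p = 0.0017), and its difference of -0.31 at LF3h did not pass the test (limma adjusted p = 0.066). The HF3h difference of Pdk2 stayed at -0.57 to -0.54 with each of the 4 arrays left out in turn. Pdk1, whose kinase is known as a target of hypoxia signalling, was lower at HF3h, with 6.40 and 6.32 there against 6.71 and 6.87 in Fasting on 1423748_at. That difference of -0.43 passed the test (limma adjusted p = 0.025) but lost the call without any 1 of the 4 arrays (0.052 to 0.21), and the other 3 Pdk1 probe sets had no call. Pdk3 lay between 5.23 and 5.67 on all arrays and was called in no comparison.

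The phosphatases, which reactivate the complex, had low signals. Both probe sets of Pdp1 and the probe set of Pdp2 were under 6 on every array. Pdp1 1434228_at was lower at LF3h by 0.50 on the log2 scale (limma adjusted p = 0.025), a call lost without any 1 of its 4 arrays (0.087 to 0.19). Pdp2 was called only between HF3h and HF1h, with a difference of -0.49 (limma adjusted p = 0.046), and this call was lost in the same way (0.058 to 0.32). In all, 7 of the 18 tested probe sets were under 6 on all arrays.

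Pdhb, the beta subunit of E1, rose after feeding. Its lead probe set 1416090_at read 9.30 and 9.34 in Fasting, 9.45 and 9.55 at LF30min, 9.77 and 9.64 at LF1h, and 10.19 and 10.17 at LF3h. The HF pools read 9.47 and 9.37 at 30 min, 9.42 and 9.57 at 1 h, and 9.73 and 9.75 at 3 h. All fed arrays were above both fasting arrays, and the LF3h pair was the highest. Pdhb rose by 0.86 (SE 0.09) at LF3h, 1.81-fold (limma adjusted p = 8.4e-05), and by 0.42 at HF3h (limma adjusted p = 0.012). The difference of 0.38 at LF1h fell just short of the threshold (limma adjusted p = 0.053). The HF3h call was lost without any 1 of its 4 arrays, while the difference stayed at 0.40 to 0.44. The weaker probe set 1448214_at averaged 6.13 ± 0.19 at LF3h and 5.52 ± 0.04 in Fasting (SD, n = 2 arrays each). This probe set was under 6 on both fasting arrays (5.50 and 5.55) and on LF3h replicate 1 (5.9994), so the size of its rise is uncertain. It rose by 0.61 (limma adjusted p = 0.012), a call lost without either fasting array or without LF3h replicate 2 (0.02 to 0.15). Pdha1, the alpha subunit that carries the phosphorylated serines, had no call on either probe set, with 10.18 to 10.48 on 1418560_at and 9.12 to 9.39 on 1449137_at.

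Counted over the 18 tested probe sets, none was called at 30 min after either meal. At that time 0.326% of all tested probe sets were higher and 0.142% lower at LF30min, and 0.600% and 0.371% at HF30min. At LF1h 3 member probe sets (Pck1 on 2 and Pdk4) were lower and 0 higher, where 0.484% of all probe sets were lower and 1.00% higher. At HF1h the same 3 were lower and 0 higher, where 0.449% were lower and 0.504% higher. At LF3h 4 were lower and 2 higher, beside 1.84% and 3.04% of all probe sets. At HF3h 5 were lower and 1 higher, beside 3.06% and 2.52%. These 6 comparisons share the 2 fasting arrays. The member median was -0.054 at LF3h and -0.151 at HF3h, where the median over all probe sets was -0.020 and 0.001. Over the 13 comparisons of the design, 9 of the 18 probe sets, from 7 genes, had a call in at least 1, beside 10.5% of all tested probe sets, and Pcx, Pdha1 and Pdk3 had none.

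**Figure D2:**
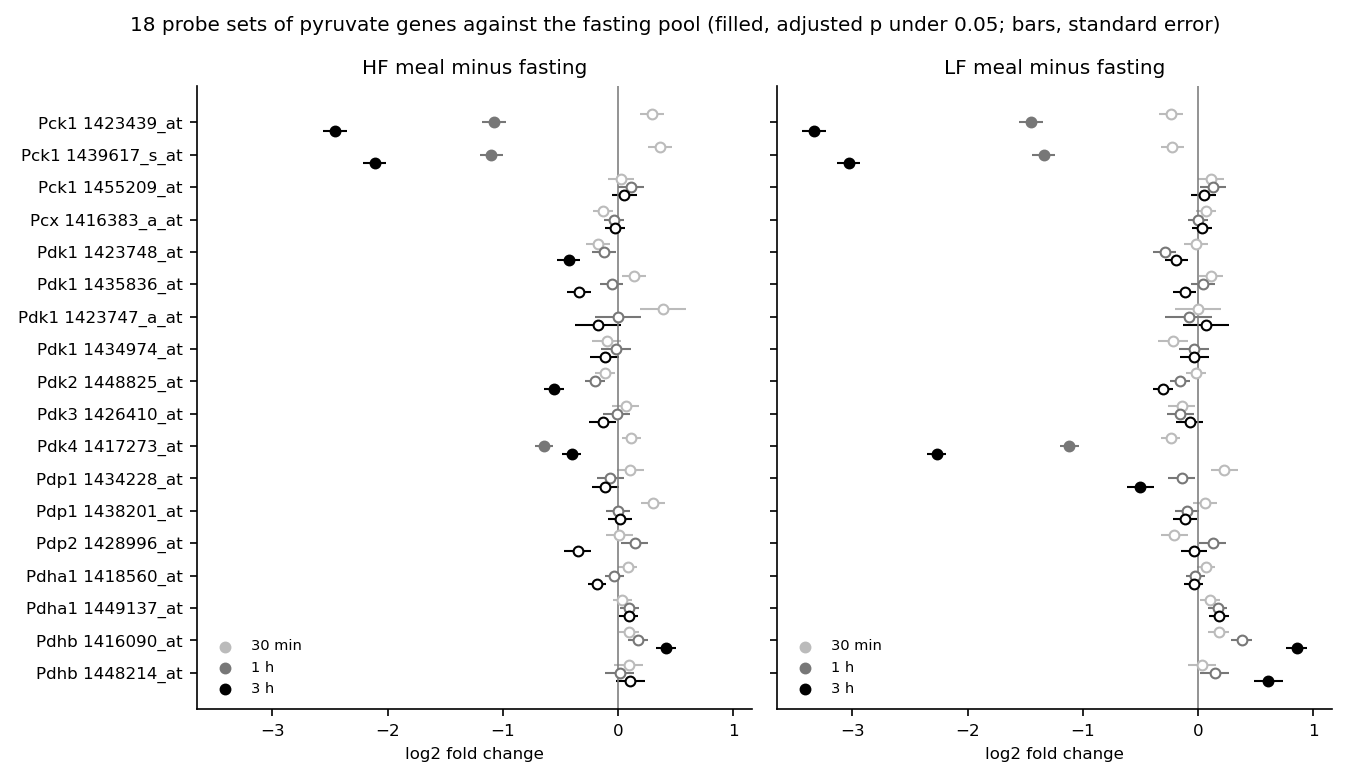
Log2 fold change against Fasting (horizontal axis) of the 18 tested probe sets (rows) after the HF meal (left) and the LF meal (right), with darker points for later times, bars for the standard error and filled points for calls. Pck1 and Pdk4 carry the lowest values at LF1h, HF1h and LF3h, and Pdhb the high value of 0.86 at LF3h. At HF3h Pck1 is lowest, and Pdk2 (-0.55) and Pdk1 on 1423748_at (-0.43) are lower than Pdk4 (-0.40).

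The design also asked how the meals differ at each time. At 30 min Pck1 was higher in HF30min than in LF30min, by 0.53 on 1423439_at and 0.59 on 1439617_s_at (limma adjusted p = 0.043 and 0.017). These were the 2 members called, beside 0.226% of all probe sets higher and 0.215% lower, and both calls were lost without any 1 of the 4 arrays (0.11 to 0.29 and 0.068 to 0.18). Of the 10 stomach and Brunner gland markers, 6 were also higher in HF30min than in LF30min, with a median of 0.75, and their part in the Pck1 difference was not tested. At 1 h only Pdk4 was called, higher by 0.48 in HF1h than in LF1h (limma adjusted p = 0.034). Of all probe sets, 0.0555% were called higher and 0.135% lower. The Pdk4 call too was lost without any 1 array, while the difference stayed at 0.47 to 0.49. The Pck1 difference at 1 h was 0.38 and did not pass the test (limma adjusted p = 0.21).

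At 3 h both Pck1 and Pdk4 were called. Pdk4 was higher in HF3h, at 9.34 and 9.18, than in LF3h, at 7.38 and 7.41, by 1.87 (SE 0.08) or 3.65-fold (limma adjusted p = 2.2e-08). Pck1 was higher by 0.87 on 1423439_at and by 0.92 on 1439617_s_at (limma adjusted p = 3.9e-04 and 1.5e-04), or by at least 0.76 and 0.38 with the LF3h level set to 6. These 3 calls held without each of the 4 arrays. Pdhb was lower in HF3h than in LF3h by 0.44 on the log2 scale (limma adjusted p = 0.023), a call lost without any 1 of the 4 arrays (0.10 to 0.16). In total 3 member probe sets were higher and 1 lower, beside 0.862% and 0.955% of all probe sets. Acinar markers were also higher in HF3h, 9 of 10 with a median of 0.80, as were 5 of 10 stomach and Brunner gland markers, with a median of 0.84. Of 7 adipocyte markers, 2 were higher (Adipoq by 1.20 and Fabp4 by 0.66), 4 of the 7, Adipoq among them, were under 6 on all arrays, and their mean level was 5.64 to 5.69 in HF3h and 5.26 to 5.32 in LF3h. Their part in the Pdk4 and Pck1 differences was not tested.

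**Figure D3:**
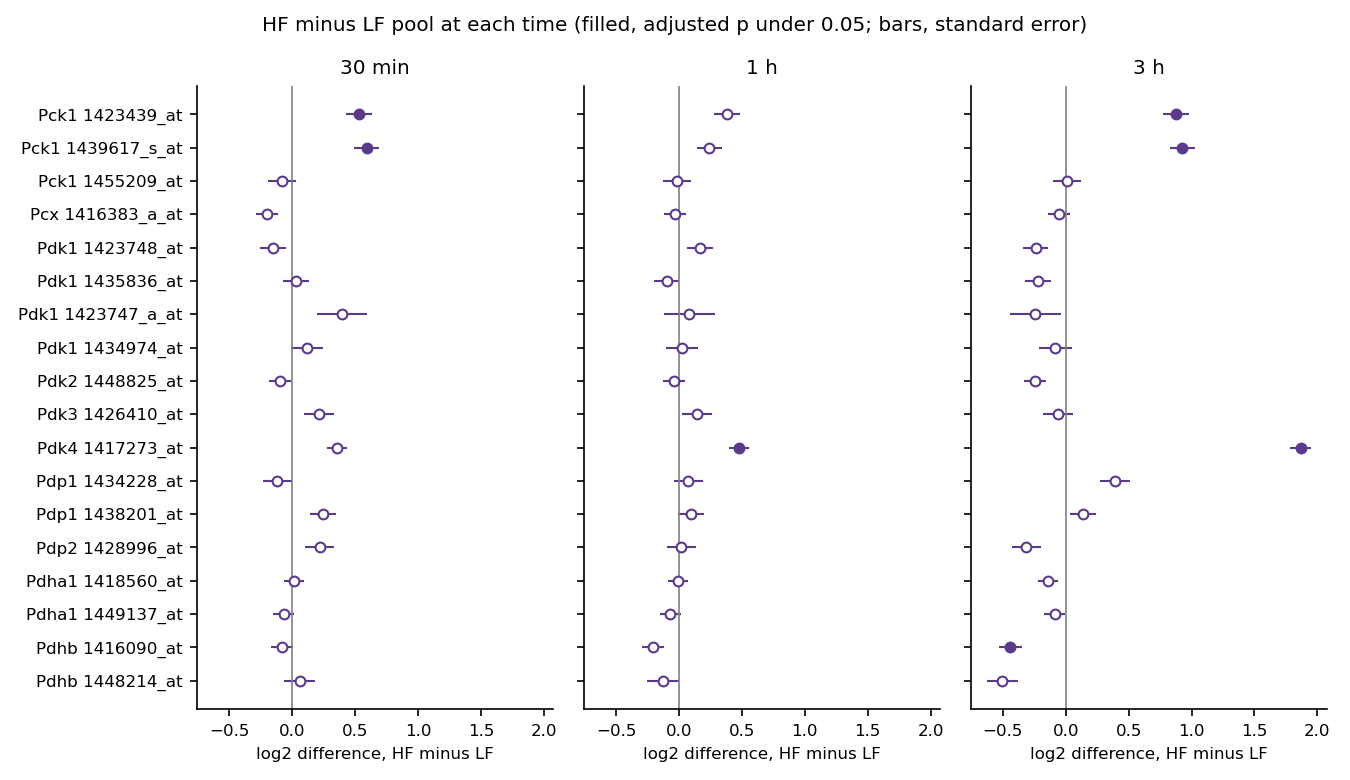
Log2 difference between the meals (HF minus LF) at 30 min, 1 h and 3 h for the tested probe sets of the pyruvate genes, with the standard error from limma as bars and filled points for calls. Pdk4 at 3 h stands at 1.87, Pck1 at 0.87 and 0.92, and Pdhb (1416090_at) at -0.44.

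Neighbouring times were also compared, each step being a difference between pools of different mice. Between LF30min and LF1h, Pck1 fell by 1.22 and fell by 1.12 on its 2 responding probe sets and Pdk4 fell by 0.88, so 3 members were lower and 0 higher, beside 0.233% and 0.391% of all probe sets. Between LF1h and LF3h, Pck1 fell by 1.88 and 1.69 (the signal was at least 3.42-fold and 2.21-fold lower with the LF3h level set to 6) and Pdk4 fell by 1.15, while Pdhb rose by 0.48 (limma adjusted p = 0.011), which is 3 lower and 1 higher beside 1.24% and 1.12%. The Pdhb step was lost without LF1h replicate 2 or either LF3h array (0.026 to 0.11 over the arrays left out in turn).

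In the HF series, between HF30min and HF1h, Pck1 fell by 1.37 and 1.47 and Pdk4 fell by 0.76 (limma adjusted p = 1.6e-04), so 3 were lower and 0 higher, beside 0.604% and 0.433%. Between HF1h and HF3h, Pck1 fell by 1.39 and 1.01, Pdp2 was lower as given above, and Pdk4 differed by 0.24 without passing the test (limma adjusted p = 0.20), which is 3 lower and 0 higher beside 0.957% and 0.930%. Steps that share a pool are not independent of each other.

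Whether the steps differed between the meals was tested with 2 contrasts chosen after the data were seen. From 1 h to 3 h the HF step of Pdk4 exceeded its LF step by 1.39 (SE 0.12; limma adjusted p = 1.6e-05), and that call held without each array. It was the 1 member called, with 0 lower, beside 0.404% of all probe sets higher and 0.109% lower. Pck1 differed by 0.50 on 1423439_at and by 0.68 on 1439617_s_at, which did not pass the test (limma adjusted p = 0.26 and 0.056). From 30 min to 1 h no member was called, beside 0.0488% higher and 0.0844% lower.

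Genes next to these in the pathway were read from lists of related genes, each gene on its most intense probe set alone. For the list counts that follow, 3.04% of all tested probe sets rose and 1.84% fell at LF3h. At HF3h 2.52% rose and 3.06% fell, and in HF3h against LF3h 0.862% were higher and 0.955% lower. Of 8 other gluconeogenic genes measured, 2 rose and 0 fell at LF3h, 1 rose and 0 fell at HF3h, and in HF3h against LF3h 0 were higher and 2 lower, with medians of 0.03, 0.03 and -0.01. The pathway genes named were picked by their calls after their values were seen. G6pc, which encodes the catalytic subunit that releases free glucose, rose by 0.96 at LF3h (limma adjusted p = 9e-06) and by 0.47 at HF3h (0.0023), and was lower by 0.50 on the log2 scale in HF3h than in LF3h (0.0039). Its direction at 3 h was thus opposite to that of Pck1. At LF1h, G6pc was the 1 gene of this list that rose, by 0.645 (limma adjusted p = 3.3e-04), and 0 fell. At HF1h 0 rose and 1 fell. Slc37a4, the transporter of glucose 6-phosphate into the endoplasmic reticulum, rose by 0.36 at LF3h, and Fbp1, a fructose bisphosphatase, was the other gene lower in HF3h than in LF3h, with a difference of -0.37.

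Of 14 genes of pyruvate and lactate exchange, 2 rose and 1 fell at LF3h and 1 rose and 1 fell at HF3h. Slc16a1, the monocarboxylate transporter that carries lactate and pyruvate, rose by 0.62 at HF3h and by 0.92 at LF3h. Pklr, a pyruvate kinase, rose by 0.45 at LF3h, and Me2, a mitochondrial malic enzyme, fell by 0.60 at HF3h and by 0.37 at LF3h. Of 5 other genes of the pyruvate dehydrogenase complex and the pyruvate carrier, 1 rose and 1 fell at LF3h and 0 rose and 1 fell at HF3h. The rising one was Pdhx, the E3-binding subunit, by 0.46, and the falling one was Pdpr, the regulatory subunit of the phosphatase, by 0.55 at HF3h and by 0.36 at LF3h. None of 11 genes of citrate synthase and the TCA cycle was called in any of the 13 comparisons. Of all tested probe sets, 10.5% were called in at least 1, so a count of 0 among 11 genes says little.

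Of 12 regulators known to act on Pck1 or Pdk4, 1 rose and 1 fell at LF3h and 1 rose and 1 fell at HF3h. The rising one was Creb1, a transcription factor of the cAMP response, at LF3h (0.39) and Hnf4a, a nuclear receptor of liver and gut epithelium, at HF3h (0.33). The falling one at both times was Ppara, the fatty acid receptor that drives Pdk4 in liver and muscle, which fell by 1.00 at HF3h and by 0.94 at LF3h (limma adjusted p = 9e-06 and 3.1e-05). Its difference in HF3h against LF3h was -0.06 and did not pass the test (0.81). Ppargc1a, a coactivator of gluconeogenic genes in liver, was lower by 0.48 on the log2 scale in HF3h than in LF3h (0.0093). Before 3 h, 1 regulator rose and 0 fell at LF1h, namely Cebpb by 0.66 (limma adjusted p = 0.0011). At HF30min 0 rose and 1 fell, and none was called at LF30min or HF1h.

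**Figure D4:**
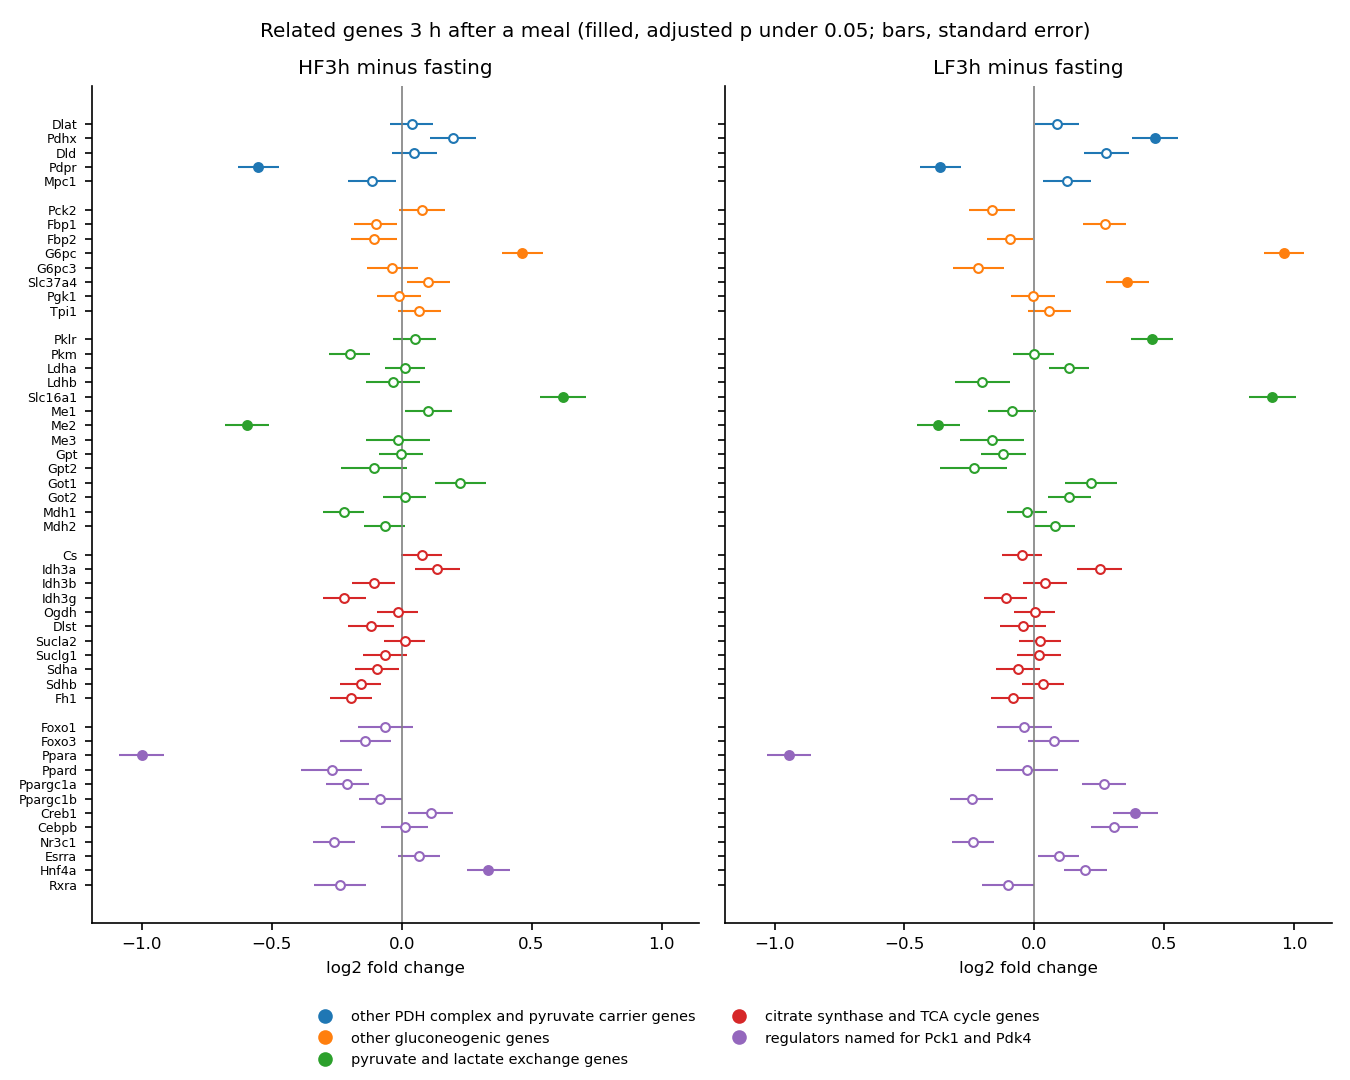
Log2 fold change against Fasting (horizontal axis) of each gene (rows) of the related pathway lists (colours) at HF3h (left) and LF3h (right), with bars for the standard error and filled points for calls. The TCA cycle list has 0 calls, and no list has more than 2 genes called in 1 direction. Of all tested probe sets, 2.52% rose and 3.06% fell at HF3h, and 3.04% rose and 1.84% fell at LF3h.

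Patterns were compared among 272 genes with a single-gene probe set whose group means span at least 1 on the log2 scale. Each gene was read on its best correlated probe set. The pattern most like that of Pck1 over the 7 group means was that of Sgms2, a sphingomyelin synthase (r = 0.976), followed by Rundc3b (0.969), Lpin2 (0.965), C730049O14Rik (0.958) and Zbtb16 (0.957). Pdk4 ranked at 40 in that order, with r = 0.840. The pattern most like that of Pdk4 was that of Hbegf, a ligand of the EGF receptor (0.931), followed by C730049O14Rik (0.928), Pck1 on 1439617_s_at (0.860), Sphk1 (0.850) and Lpin2 (0.849). Pdhb ran opposite to both members, with r = -0.932 against Pck1 and -0.925 against Pdk4. These correlations describe 7 pools, of which all genes share the same arrays.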

How the data were processed

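RNA of duodenal mucosa was hybridised to Affymetrix MOE 430 v2.0 arrays, and the deposited values are log2 signals that the authors made by RMA, which corrects background, normalizes the arrays by quantiles and summarises probes. RMA of all arrays together makes them alike in distribution, so only relative differences can be read. Groups were taken from the sample labels. Each probe set was fitted in R 4.3.3 with limma 3.58.1, with 1 mean per group over 14 arrays (7 residual degrees of freedom), and p-values were adjusted by Benjamini-Hochberg within each comparison over 45037 non-control probe sets. The median standard error of a difference from Fasting was 0.11.

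The members and gene lists were chosen with earlier results of these data known. All members are named and all their tested probe sets plotted, the lead probe set is the one with the highest mean, pathway genes are named where a list holds a gene called at 2-fold or more, and other pathway genes by their calls. Of 120 listed genes, 13 were not used here. The fit was tested on simulated data for LF3h against Fasting over 45037 probe sets, with noise drawn from the spread between replicate arrays. It called 7 of 50 changes of 1.3-fold, 25 of 50 of 1.5-fold, 47 of 50 of 2-fold and 50 of 50 of 4-fold, with 8 false calls. The data held many more calls in that comparison, 1368 higher and 829 lower, so these rates need not hold for them. Alternatives were other call rules, a filter on low values, median centring, further quantile normalization, another variance model, a replicate block, only the 4 arrays compared, control probe sets kept, and each array left out in turn. Leaving out an array leaves 1 array in its group, which widens the standard error. A call can therefore be lost while the difference stays nearly the same. Tag libraries and protein blots of the study were not analysed here.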

Additional observations from a re-analysis of the deposited data

Results flagged for a closer look

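Several members differed between the meals at the same time after feeding, by limma's test of the difference itself. On the log2 scale, HF minus LF, Pck1 differed by 0.53 on 1423439_at and by 0.59 on 1439617_s_at at 30 min, and by 0.87 and 0.92 on the same probe sets at 3 h. Pdk4 differed by 0.48 at 1 h and by 1.87 at 3 h, and its HF step from 1 h to 3 h exceeded the LF step by 1.39, a contrast chosen after the data were seen. Pdhb on 1416090_at differed by -0.44 at 3 h. The 3 h differences of Pck1 and Pdk4 and the step difference of Pdk4 held without each array, whereas those of Pck1 at 30 min, Pdk4 at 1 h and Pdhb at 3 h were each lost without any 1 of their 4 arrays.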

How the results depend on the processing

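No called difference of a member changed sign under the alternatives run. Counts of member probe sets called are given as alternative against the count reported. With a fold minimum of 2, they were 3 against 6 at LF3h, 2 against 6 at HF3h, 1 against 4 in HF3h against LF3h, and 0 against 2 and 0 against 1 between the meals at 30 min and 1 h. With a minimum of 1.5-fold they were 2 at HF3h, 1 between the meals at 30 min and 0 at 1 h. With probe sets of a mean of at least 6 alone, they were 1 at HF30min against 0, 2 between the meals at 1 h, 6 from HF1h to HF3h against 3, and 2 for the step difference from 1 h to 3 h against 1. A trended and robust variance gave 2, 2, 6 and 3 for the same 4 comparisons. Median centring gave 1 between the meals at 30 min and 0 at 1 h, the 4 compared arrays alone gave 0 and 0, and dropping members whose probe set name marks shared or similar transcripts gave 1 at 30 min. With the replicate block the counts were 1 at 30 min and 0 at 1 h, and it changed no other count by over 1.5 times. Replicate numbers do not pair the samples: deviations of same-numbered arrays correlated at -0.187 to 0.151 over 21 group pairs.

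With each array left out in turn, counts were 0 to 0 between the meals at 30 min and at 1 h, 3 to 4 at HF3h, and 1 to 2 for the step difference from 1 h to 3 h, where the gain came without HF3h replicate 2. Keeping control probe sets, chosen after the data were seen, changed no call, and further quantile normalization moved no count by over 1.5 times.

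Each group is 1 pool, so differences between mice cannot be seen. Levels under 6 lie near background, which limits Pdp1, Pdp2, Pdk3 and Pck1 at LF3h. The same limit holds for Pck1 on 1455209_at and Pdk1 on 1423747_a_at and 1434974_at. It also holds for most arrays of Pdk1 on 1435836_at, and for Pdhb on 1448214_at except LF3h replicate 2. Depth has no meaning for arrays, and their number limits the precision.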
